A study of Mus musculus with 12 samples.

Results

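The interferon-stimulated genes described here are 43 genes that cells switch on after type I or type III interferon, with the Oas family and the genes of antigen presentation left out. They were chosen by gene symbol, and all 43 symbols were found among the 17112 genes of the deposited table. All 43 also passed the filter on low values, at least 1 CPM (reads of the gene scaled to the size of the library) in at least 2 libraries, which left 14001 genes for testing. RNA-seq libraries came from 12 C57BL/6 mice, and the labels give the tissue as whole small intestine. Some were wild type (WT), some were heterozygous (HET) and some were knockouts (KO) for Zip4, the gene symbol of which is Slc39a4 and the product of which imports dietary zinc into the enterocyte. Each genotype received zinc bound in an organic complex at its amino or its hydroxy end, which gave 6 groups of 2 libraries. The study asked whether the complex and the importer matter for zinc uptake.

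The 2 WT groups and the 2 HET groups ate diets labelled 15 ppm zinc, and the 2 KO groups ate diets labelled 40 ppm, although the text for the series gives 15 ppm throughout. Genotype and zinc level therefore cannot be told apart wherever KO is compared with WT or HET. The WT mice were 210 and 218 days old with the amino complex and 237 and 221 days with the hydroxy complex. The KO mice were 198 and 228 days old with the amino complex and 237 and 240 days with the hydroxy complex. The HET mice were 363 and 141 days old with the amino complex and 338 and 143 days with the hydroxy complex. All mice were labelled male except KO amino 2, labelled female. The labels do not say whether Zip4 was deleted in all cells or in some, and they name no litter, cage or batch, so p-values rest on the spread between these animals. A library is named by genotype, complex and replicate number, as in KO hydroxy 1. The labels give no replicate numbers, so these were assigned here. Lists of 4 values follow the order amino 1, amino 2, hydroxy 1, hydroxy 2.

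Interferons are secreted proteins that bind receptors on the cell surface and activate the kinases Jak1 and Tyk2. These phosphorylate Stat proteins, among them Stat2, which joins Irf9 in a complex, ISGF3, that binds interferon-stimulated response elements in DNA. The genes switched on encode sensors of foreign RNA and DNA, proteins that block steps of viral replication, and regulators that amplify or end the response. In the gut, type III interferon acts mainly on the epithelium, and the resident microbes keep a low level of the response active.

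Libraries held an estimated 26.0 to 38.8 M reads, of which 62.0% to 71.8% fell in listed genes, and 3 reads corresponded to 0.0773 to 0.115 CPM. The tissue label was checked with Vil1, a protein of enterocyte microvilli, at 1074 to 2938 CPM, and with the liver gene Alb, at no more than 0.465 CPM. The ileal gene Fabp6 stood at 259 CPM in WT hydroxy 1 and at 99.3 CPM in HET amino 2, and below 1 CPM in the other libraries. In KO it reached no more than 0.09 CPM. By this gene the other libraries held little ileum, which goes against a label of whole small intestine. The libraries may therefore differ in the segment sampled. HET amino 2 also had 1539 genes at 0, against 478 to 860 in the others. In both libraries of the KO amino group the sex-linked genes contradicted the label: KO amino 1 held 244 CPM of Xist and 0 of Ddx3y, and KO amino 2 held 0.155 and 32.2 CPM. An exchange of these 2 libraries within their group would leave every group as it is. Slc39a4 itself (chromosome 15, 76612383 to 76616852, minus strand, mm10) stood at 229 ± 33.1 CPM in WT (SD, n = 4), 195 ± 74.4 in HET and 72.1 ± 23.6 in KO, and every KO library lay below every other library (exact two-sided permutation p = 0.0286 against each genotype, the smallest that 4 against 4 libraries allow).

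The 43 genes stood higher in KO than in either other genotype as a group, and single genes passed the threshold against HET. The difference between these comparisons, HET against WT, passed for no member. In KO against HET 26 of the 43 passed, 25 higher and 1 lower, which is 60.5% of them, beside 6.84% of all genes tested (limma on log2(CPM + 1), adjusted p under 0.05 over all genes). Higher calls made up 58.1% of the 43, against 3.44% of all genes, and lower calls made up 3.4% of all genes. The 43 were chosen with earlier results of these data known, so such contrasts with all genes describe the list and are no independent test. In KO against WT none of the 43 passed, beside 0.0286% of all genes (0.0214% higher and 0.00714% lower). There the smallest adjusted p was 0.053, 41 of the 43 lay above 0, and 35 had an unadjusted p under 0.05, which 9.79% of all genes had. Against HET 36 had an unadjusted p under 0.05, which 27.5% of all genes had. The adjusted p depends on the p-values of all genes, of which 957 passed against HET and 4 against WT. Ifi44 had unadjusted limma p-values of 2.06e-05 against HET and 2.13e-05 against WT, which became 0.0131 and 0.053. A call against HET alone therefore does not by itself show a larger difference there. The median log2 difference of the 43 was 1.14 in KO against WT and 1.14 in KO against HET, beside 0.02 and −0.07 over all genes tested. These comparisons share the KO libraries. In ratios of mean CPM, KO to WT ran from 0.80 for Gbp2 to 22.6 for Ifi44, with a median of 2.26, and KO to HET ran from 0.434 for Gbp4 to 25.1 for Ifi44, with a median of 2.38.

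The count of 26 in KO against HET depended on single libraries. It was 0 without HET hydroxy 1, 13 without HET amino 2, 5 without KO amino 1, 9 without KO amino 2, 9 without KO hydroxy 1 and 17 without KO hydroxy 2, and 18 to 22 without any other library. Without HET hydroxy 1 the lowest adjusted p among the 43 was 0.0541, and 1 gene of the whole table passed. The direction was steadier: 38 to 41 of the 43 lay above 0 in each of these fits, with medians from 0.98 to 1.37. A fit with genotype and complex as additive terms, chosen after seeing the data, allowed both libraries of a group to be left out. Without both KO amino libraries, whose sex-linked genes go against their labels, 22 of the 43 passed against HET and 7 against WT, with medians of 1.46 and 1.41. With those libraries and without both KO hydroxy libraries, 0 passed in either comparison, and the medians were 0.90 against HET and 0.87 against WT.

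The individual libraries show the same ordering without a model. All 4 KO libraries lay above all 4 WT libraries for 25 of the 43 (58.1%), beside 2.92% of all genes tested, and below for none, beside 2.57%. They lay above all 4 HET libraries for 27 (62.8%), beside 6.21%. For 21 of the 43 the KO libraries were the highest 4 of all 12, which held for 1.42% of all genes. KO hydroxy 1 was the highest library for 34 of the 43, KO amino 1 for 4, HET amino 2 for 4 and KO hydroxy 2 for 1. WT amino 1 was the lowest library for 16. Summed over the 43, the libraries held 1223 to 1949 CPM in WT, 1225 to 1993 in HET and 2187 to 5765 in KO. Within KO, KO amino 2 was lowest and KO hydroxy 1 highest. The highest sums in WT and in HET were those of WT hydroxy 1 and HET amino 2, the libraries with high Fabp6. The KO libraries had higher sums with Fabp6 at no more than 0.09 CPM. The part of gut segment in these sums was not tested.

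**Figure D1:**
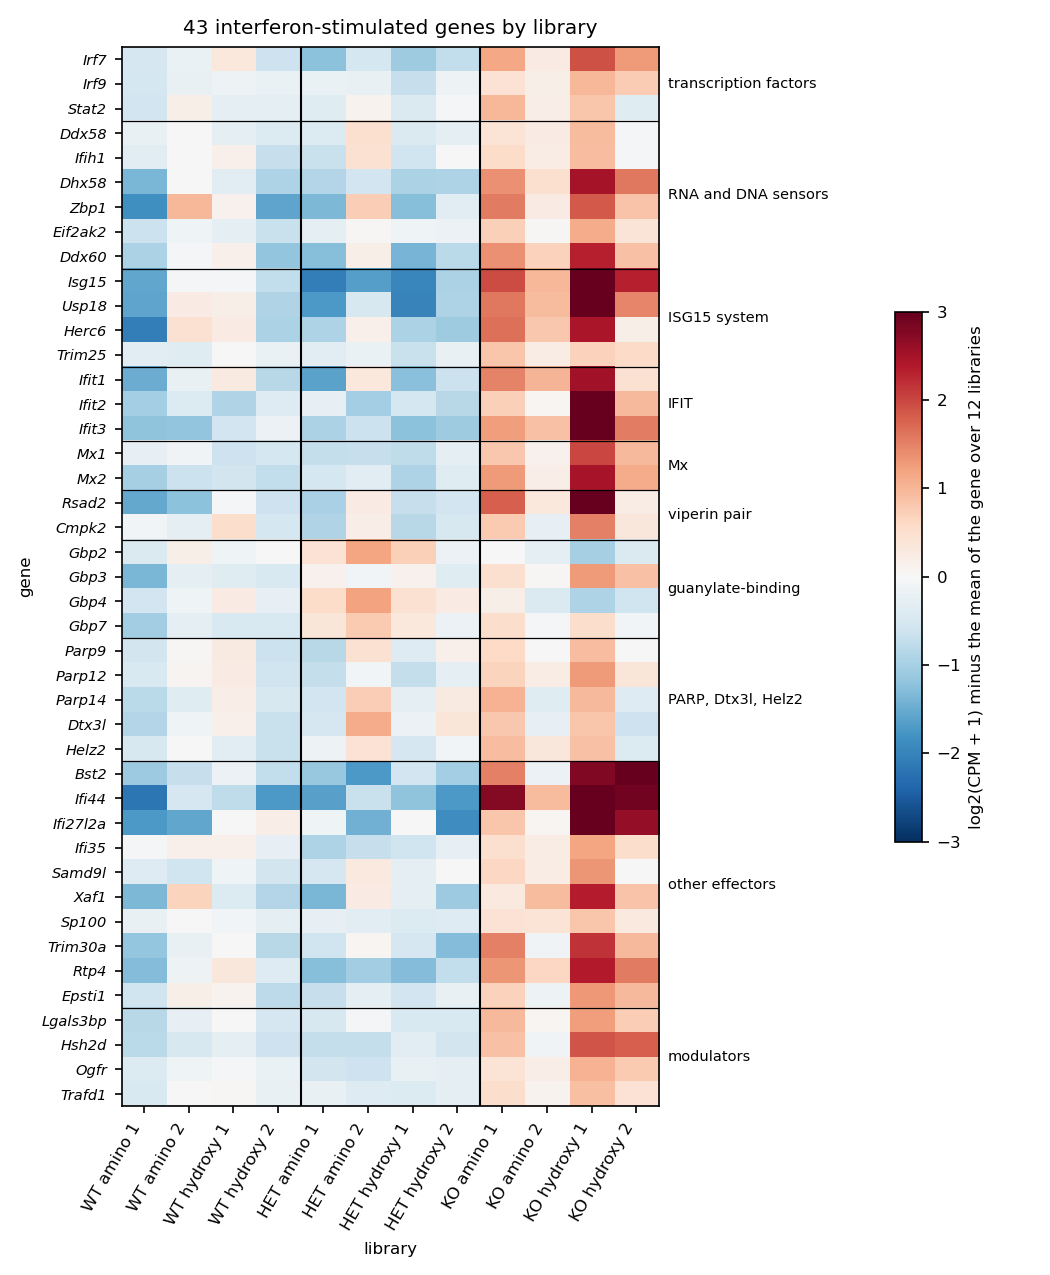
Each row is one of the 43 genes and each column one of the 12 libraries; colour gives log2(CPM + 1) minus the gene's mean over the 12 libraries, with colours limited to −3 to 3, and genes are grouped by role. KO hydroxy 1 is the darkest column, KO amino 2 the palest of the KO columns, and the rows of Gbp2 and Gbp4 run the other way from the rest.

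The transcription factors of the response were Irf7, Irf9 and Stat2, and 2 of the 3 rose in KO against HET. Irf7 (chromosome 7, 141263183 to 141266424, minus strand), the factor that amplifies interferon production, stood at 81.2, 101, 144 and 74.9 CPM in WT. Its values were 48.6, 80.1, 54.4 and 68.5 CPM in HET and 259, 138, 438 and 280.2 CPM in KO. All KO libraries lay above all HET libraries, while KO amino 2 fell just below WT hydroxy 1. The log2 difference was 2.04 (SE 0.29, adjusted p = 0.0144) against HET by limma and 1.40 (SE 0.29, adjusted p = 0.133) against WT, and exact two-sided permutation p-values were 0.0286 and 0.0571. Irf9, the DNA-binding subunit of ISGF3, stood at 42.2, 35.01, 62.5 and 53.2 CPM in KO, above the 21.3 to 27.8 CPM of WT and the 18.8 to 27.6 CPM of HET without overlap. Its log2 difference was 0.91 (SE 0.15, adjusted p = 0.022) against HET and 0.86 (SE 0.15, adjusted p = 0.0927) against WT. Stat2, a subunit of ISGF3, had 27.4 to 72.8 CPM in KO, which overlapped the 23.7 to 40.6 CPM of WT, and did not pass (0.59 against HET, adjusted p = 0.229 by limma).

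The response element that ISGF3 and related factors bind was looked for in the promoters of the 43. RefSeq's promoter table (GRCm38.p6, the same assembly as mm10) held 33 of them, as windows from 250 bases before to 50 bases after the start. The core GAAANNGAAA, on either strand and with overlapping matches counted, was present for 15 of these 33 (45.5%), beside 3.99% of the 27025 genes of the table (3.44% of its 32851 windows of the same length). The gamma-activated site TTCNNNGAA, an element of the response to interferon gamma, was present for 5 of the 33 (15.2%), beside 9.55% of genes. Of the 33, 19 had passed as higher in KO against HET, and 7 of these held the core. Among the other 14, 8 held it. A match in these letters is a description of the sequence and not a measured binding site. The following sequences are the 150 bases before the start, 5′ to 3′ on the strand of the gene, with matches to the core in capitals. Isg15, Ifit1, Ifit3 and Bst2 are shown as examples of the 7 that hold the core and rose in KO against HET. Ddx60, Ogfr and Trim30a, also among the 7, are not shown. Gbp2 is shown because it holds the core and had a lower level in KO.
Isg15, chr4:156200819-156200968, minus strand: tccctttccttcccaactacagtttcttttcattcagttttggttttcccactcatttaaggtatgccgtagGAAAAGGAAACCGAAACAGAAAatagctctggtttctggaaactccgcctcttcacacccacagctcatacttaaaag
Ifit1, chr19:34640739-34640888, plus strand: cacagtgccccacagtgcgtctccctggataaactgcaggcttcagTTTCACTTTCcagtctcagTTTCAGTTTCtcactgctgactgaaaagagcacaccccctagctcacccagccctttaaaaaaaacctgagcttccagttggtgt
Ifit3, chr19:34583379-34583528, plus strand: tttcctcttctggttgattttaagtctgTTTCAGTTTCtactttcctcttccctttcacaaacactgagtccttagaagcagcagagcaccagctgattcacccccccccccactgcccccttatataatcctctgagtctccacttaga
Bst2, chr8:71537473-71537622, minus strand: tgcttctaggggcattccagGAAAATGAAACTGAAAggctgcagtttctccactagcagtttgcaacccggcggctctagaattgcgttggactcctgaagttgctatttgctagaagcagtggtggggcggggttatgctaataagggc
Gbp2, chr3:142620513-142620662, plus strand: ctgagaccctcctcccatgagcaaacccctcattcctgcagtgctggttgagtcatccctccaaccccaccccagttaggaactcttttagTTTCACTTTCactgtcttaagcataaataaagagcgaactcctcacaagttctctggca
In the Isg15 promoter 3 matches overlap in 1 run, and in that of Bst2 2 matches do. In Ifit1 2 separate matches lie on the other strand, so they read TTTCNNTTTC here, as do the 1 match of Ifit3 and the 1 match of Gbp2.

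Sensors of RNA and DNA numbered 6, and 2 of them, Dhx58 and Ddx60, rose in KO against HET. Dhx58, the RIG-I-like protein LGP2 that regulates the other RIG-I-like receptors, had 3.92, 11.9, 9.19 and 5.67 CPM in WT and 5.96, 7.58, 5.57 and 5.697 CPM in HET. In KO it had 31.98, 16.7, 71.5 and 37.4 CPM, above every WT and HET library. The log2 difference by limma was 2.32 (SE 0.35, adjusted p = 0.0177) against HET and 2.14 (SE 0.35, adjusted p = 0.0757) against WT. Ddx60, a helicase that assists RIG-I, had 132, 81.8, 256 and 92.7 CPM in KO, against 21.4 to 55.7 in WT and 18.4 to 56.7 in HET, again without overlap. Its log2 difference was 2.14 (SE 0.46, adjusted p = 0.0331) against HET and 1.83 (adjusted p = 0.254) against WT. Eif2ak2, the RNA-activated kinase PKR that halts translation, also had KO libraries (32.8 to 69.3 CPM) above all WT and HET libraries (19.6 to 28.8 and 26.1 to 32.5 CPM), but its difference of 0.69 against HET did not pass (adjusted p = 0.0829). The receptors Ddx58 (RIG-I) and Ifih1 (MDA5) had the smallest differences of the 6, 0.55 and 0.61 against HET, and their KO ranges overlapped both other genotypes. Zbp1, a sensor of Z-form nucleic acid, had a log2 difference of 1.68 with an SE of 0.71, and its WT libraries ran from 4.11 to 34.9 CPM.

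Of the 4 genes of the ISG15 system Isg15, Usp18 and Trim25 rose in KO against HET. On the log2(CPM + 1) scale Isg15 had the highest difference of the 43, 3.91 beside 3.89 for Ifi44, while Ifi44 had the higher ratio of mean CPM, 25.1 beside 20.1. Isg15 (chromosome 4, 156199424 to 156200818, minus strand) encodes a ubiquitin-like protein that is attached to newly made proteins and also secreted. It stood at 9.23, 28.03, 27.9 and 17.1 CPM in WT and at 6.14, 8.56, 6.68 and 14.6 CPM in HET. In KO it stood at 116, 58.9, 399 and 149.7 CPM, so that the lowest KO library was above the highest of the other 8, and KO hydroxy 1 was above the other KO libraries. The log2 difference was 3.91 (SE 0.44, adjusted p = 0.0124) against HET and 2.85 (SE 0.44, adjusted p = 0.064) against WT by limma, and the exact permutation test (two-sided) gave p = 0.0286 for each. Usp18, the protease that removes Isg15 and dampens receptor signalling, had 3.64, 15.4, 14.5 and 6.43 CPM in WT and 3.19, 8.89, 2.46 and 6.29 CPM in HET. Its KO values were 40.2, 25.7, 128 and 37.3 CPM, above all others, with a log2 difference of 3.09 (SE 0.54, adjusted p = 0.0222) against HET and 2.32 (SE 0.54, adjusted p = 0.205) against WT. Trim25, a ligase that activates RIG-I, rose by less, with 148 to 226 CPM in KO against 79.4 to 109.9 in HET (log2 difference 0.93 (SE 0.16, adjusted p = 0.022)). Herc6, the main Isg15 ligase of the mouse, had 22.4 to 112 CPM in KO and 8.89 to 22.1 CPM in HET, which did not overlap, but its difference of 1.97 (SE 0.64) did not pass (adjusted p = 0.0856).

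The IFIT genes, neighbours on chromosome 19 whose products bind foreign RNA ends and block translation, all rose in KO against HET. Ifit1 (chromosome 19, 34640889 to 34650009, plus strand) had 14.7, 36.2, 51.5 and 23.6 CPM in WT and 13.4, 53.6, 17.2 and 26.8 CPM in HET. Its KO values were 123, 86.99, 249.8 and 58.8 CPM, above all 8 others, although KO hydroxy 2 lay only slightly above HET amino 2. The log2 difference was 2.17 (SE 0.55, adjusted p = 0.0482) against HET and 1.94 (SE 0.55, adjusted p = 0.317) against WT by limma, and the exact two-sided permutation p was 0.0286 for each. Ifit3 had 46.9, 36.1, 206 and 57.8 CPM in KO, against 7.76, 7.93, 12.5 and 16.9 in WT and 9.43, 12.02, 7.55 and 8.72 in HET. Here too no KO library overlapped the others, and KO hydroxy 1 stood well above the rest of KO. Its log2 difference was 2.73 (SE 0.33, adjusted p = 0.0124) against HET and 2.54 (SE 0.33, adjusted p = 0.053) against WT. Ifit2 had 14.8, 8.98, 114 and 17.8 CPM in KO, with KO hydroxy 1 far above the rest, and its log2 difference of 1.98 (SE 0.49, adjusted p = 0.0471) against HET ran from 1.33 without KO hydroxy 1 to 2.63 without KO hydroxy 2. Ifit3 has a close copy, Ifit3b, with which it may share reads, so the split between them is uncertain.

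Mx1 and Mx2 encode dynamin-like GTPases that block viral replication, and RefSeq lists both as transcribed pseudogenes of the reference strain, while the other 41 are listed as protein coding. Mx1 had 6.52, 3.69, 16.01 and 7.39 CPM in KO, 1.79 to 2.94 CPM in WT and 1.498 to 2.53 CPM in HET. Mx2 had 8.36, 3.47, 20.6 and 7.39 CPM in KO, 0.949 to 1.66 CPM in WT and 1.04 to 2.15 CPM in HET. For both genes every KO library was above every other library. The log2 differences against HET were 1.59 (SE 0.27, adjusted p = 0.022) for Mx1 and 1.79 (SE 0.35, adjusted p = 0.0271) for Mx2 by limma, and against WT they were 1.36 and 1.99 (adjusted p = 0.128 and 0.0906). Rsad2, which encodes viperin, and its neighbour Cmpk2, a nucleotide kinase, did not pass in any comparison. Rsad2 had 27.4, 9.17, 70.5 and 8.51 CPM in KO, 1.83 to 6.85 in WT and 3.16 to 8.71 in HET, so KO hydroxy 2 overlapped HET, and the log2 difference was 1.86 (SE 0.59, adjusted p = 0.0829) against HET. That of Cmpk2 was 1.11 (SE 0.37, adjusted p = 0.0947).

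**Figure D2:**
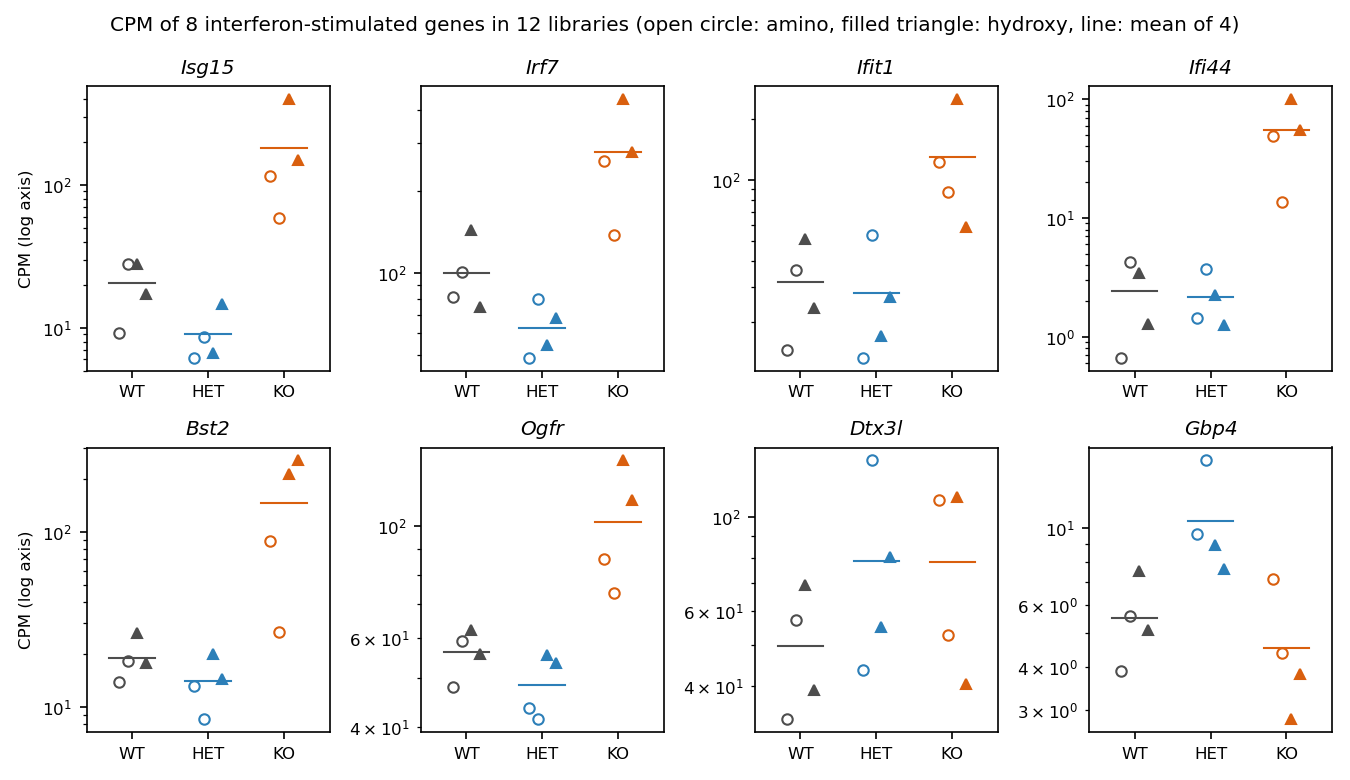
CPM on a log axis for 8 of the genes in each library, with genotype on the horizontal axis, open circles for the amino complex, filled triangles for the hydroxy complex and a line at the mean of 4 libraries. For Isg15, Ifit1, Ifi44, Bst2 and Ogfr every KO point lies above all others; for Dtx3l the genotypes overlap, and for Gbp4 the HET points lie on top.

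The guanylate-binding proteins, GTPases that attack membranes of intracellular bacteria and parasites and that respond strongly to interferon gamma, gave 1 call of 4 in KO against HET, and that call was lower. Gbp4 (chromosome 5, 105115767 to 105139586, minus strand) was the member that fell in KO against HET. It had 3.89, 5.59, 7.52 and 5.08 CPM in WT, 9.61, 15.6, 8.91 and 7.63 CPM in HET and 7.13, 4.37, 2.82 and 3.803 CPM in KO. Every HET library lay above every KO library and every WT library, and KO overlapped WT. Groups in which all KO libraries lay below all HET libraries made up 7.13% of all genes tested, and among the 43 Gbp4 was the one. The log2 difference was −1.06 (SE 0.25, adjusted p = 0.0397) against HET and −0.27 (SE 0.25, adjusted p = 0.694) against WT by limma. The call against HET held without HET amino 1 (adjusted p = 0.0237) and ended without any other library. Gbp2 had 22.4, 38.5, 27.5 and 14.3 CPM in HET and 16.1, 13.1, 7.77 and 11.9 CPM in KO, with 11.8 to 18.5 CPM in WT, and its difference of −0.97 (SE 0.27, adjusted p = 0.058) against HET did not pass. Gbp7 stood at 6.36 to 11.5 CPM in WT, 12.6 to 25.3 in HET and 13.5 to 21.1 in KO, so that both HET and KO lay above WT (0.80 for KO against WT, adjusted p = 0.352). Gbp3 had 13.01 to 32.4 CPM in KO, above WT (4.3 to 10.5 CPM), with a log2 difference of 1.28 (adjusted p = 0.133) that did not pass. These paralogs are similar in sequence and may share reads.

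ADP-ribosyltransferases and their partners made up 5 of the 43, and Parp12, which modifies proteins in the Golgi and in stress granules, was the one that rose in KO against HET. Parp12 had 138, 101, 212 and 112 CPM in KO, 51.97 to 81.4 CPM in HET and 56.7 to 104 CPM in WT, so KO and HET did not overlap while KO amino 2 lay below the highest WT library. Its log2 difference was 1.09 (SE 0.28, adjusted p = 0.0484) by limma. Parp9, Parp14, the ubiquitin ligase Dtx3l and the helicase-like coactivator Helz2 overlapped HET and WT and did not pass, with log2 differences against HET of 0.52, 0.27, −0.00 and 0.51. Dtx3l had 43.7 to 136 CPM in HET and 40.3 to 112 CPM in KO, with HET amino 2 highest of all. Dtx3l and Parp9 lie on opposite strands of chromosome 16 and overlap at their starts. The sources used here do not say whether counting used the strand, and reads of these genes cannot be fully told apart.

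Of the 10 other effectors, 8 rose in KO against HET. Bst2 (chromosome 8, 71534262 to 71537437, minus strand), or tetherin, holds budding virus at the cell surface. It had 13.8, 18.4, 26.6 and 17.8 CPM in WT and 13.2, 8.49, 20.1 and 14.4 CPM in HET. In KO it had 88.2, 26.8, 215 and 256 CPM, where KO amino 2 was barely above WT hydroxy 1 and the hydroxy libraries were far above. The log2 difference was 2.90 (SE 0.33, adjusted p = 0.0124) against HET and 2.46 (SE 0.33, adjusted p = 0.0549) against WT by limma. Ifi44 (chromosome 3, 151730923 to 151749959, minus strand), a microtubule-associated protein, stood at 0.664, 4.28, 3.42 and 1.28 CPM in WT and 1.44, 3.71, 2.27 and 1.26 CPM in HET. Its KO values of 49.4, 13.5, 100.5 and 54.8 CPM all lay above these. The log2 difference was 3.89 (SE 0.51, adjusted p = 0.0131) against HET and 3.88 (SE 0.51, adjusted p = 0.053) against WT, the latter, with that of Ifit3, the smallest adjusted p of the 43 in that comparison.

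Ifi27l2a, a small membrane protein of the ISG12 family, had the largest log2 difference between complexes of the 43 in KO and in WT. It had 1.26, 1.54, 6.56 and 7.64 CPM in WT, 5.86, 1.78, 6.57 and 1.08 CPM in HET and 12.5, 6.85, 59.2 and 45.5 CPM in KO. KO amino 2 overlapped WT, and the KO hydroxy libraries stood far above all others. The log2 difference by limma was 2.49 (SE 0.43, adjusted p = 0.022) against HET. Rtp4, a chaperone of receptors at the cell surface, had 44.8, 27.4, 95.4 and 52.8 CPM in KO, above 6.42 to 22.2 CPM in WT and 6.45 to 10.1 CPM in HET (log2 difference 2.56 (SE 0.32, adjusted p = 0.0124) against HET). Trim30a, a tripartite motif protein that restrains inflammatory signalling, had 17.1 to 86.5 CPM in KO and 6.92 to 19.2 CPM in HET, and KO amino 2 fell within HET although the gene passed (1.72 (SE 0.43, adjusted p = 0.0472)). Ifi35, a partner of the protein Nmi, rose by 1.21 (adjusted p = 0.0157), Epsti1 by 1.14 (0.044) and Sp100, a protein of nuclear bodies, by 0.83 (0.022). Xaf1, an antagonist of an inhibitor of apoptosis, and Samd9l, a restriction factor, did not pass against HET (1.74 and 0.67, adjusted p = 0.0752 and 0.166).

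All 4 modulators, proteins that tune immune signalling or growth, rose in KO against HET. Ogfr (chromosome 2, 180589407 to 180595837, plus strand), the receptor for an opioid growth factor, had 48.1, 59.1, 62.2 and 55.8 CPM in WT and 43.7, 41.4, 55.4 and 53.5 CPM in HET. In KO it had 86.2, 73.7, 135 and 112 CPM, above all others, with both hydroxy libraries above both amino libraries. Its log2 difference was 1.02 (SE 0.12, adjusted p = 0.0124) against HET and 0.81 (SE 0.12, adjusted p = 0.0624) against WT by limma, and against HET it stayed between 0.96 and 1.09 whichever library was left out. Hsh2d, an SH2 adaptor of lymphocytes, had 4.06, 1.55, 9.18 and 8.48 CPM in KO, 0.569 to 1.25 in WT and 0.666 to 1.15 in HET. No library overlapped between KO and the others, and the log2 difference was 1.70 (SE 0.25, adjusted p = 0.0157) against HET and 1.66 (SE 0.25, adjusted p = 0.0624) against WT. Lgals3bp, a secreted glycoprotein that binds galectins, had 238 to 545 CPM in KO against 163 to 223 in HET (log2 difference 1.11 (SE 0.25, adjusted p = 0.0367)). Trafd1, a brake on innate signalling, had 65.6 to 115 CPM in KO against 46.2 to 52.3 in HET (0.81 (SE 0.17, adjusted p = 0.0303)).

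The 26 calls against HET differed in how they held when 1 library was left out. Bst2, Ifi44, Ifit3, Isg15 and Ogfr passed in 11 of the 12 such fits and failed without HET hydroxy 1, where the adjusted p was 0.0541 for each by limma. Hsh2d, Irf7 and Rtp4 passed in 10, failing also without KO amino 1, and Ifi35 passed in 9, failing further without KO amino 2. Dhx58, Trim25 and Usp18 passed in 8, Irf9, Mx1, Mx2 and Sp100 in 7, Ifi27l2a and Trafd1 in 6 and Ddx60 in 5. Epsti1, Ifit2 and Lgals3bp passed in 2 and Gbp4 in 1. Ifit1, Parp12 and Trim30a passed in none, with adjusted p-values from 0.0506 to 0.171. Their log2 differences stayed on the same side of 0 in all 12 fits, as did those of all 26.

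**Figure D3:**
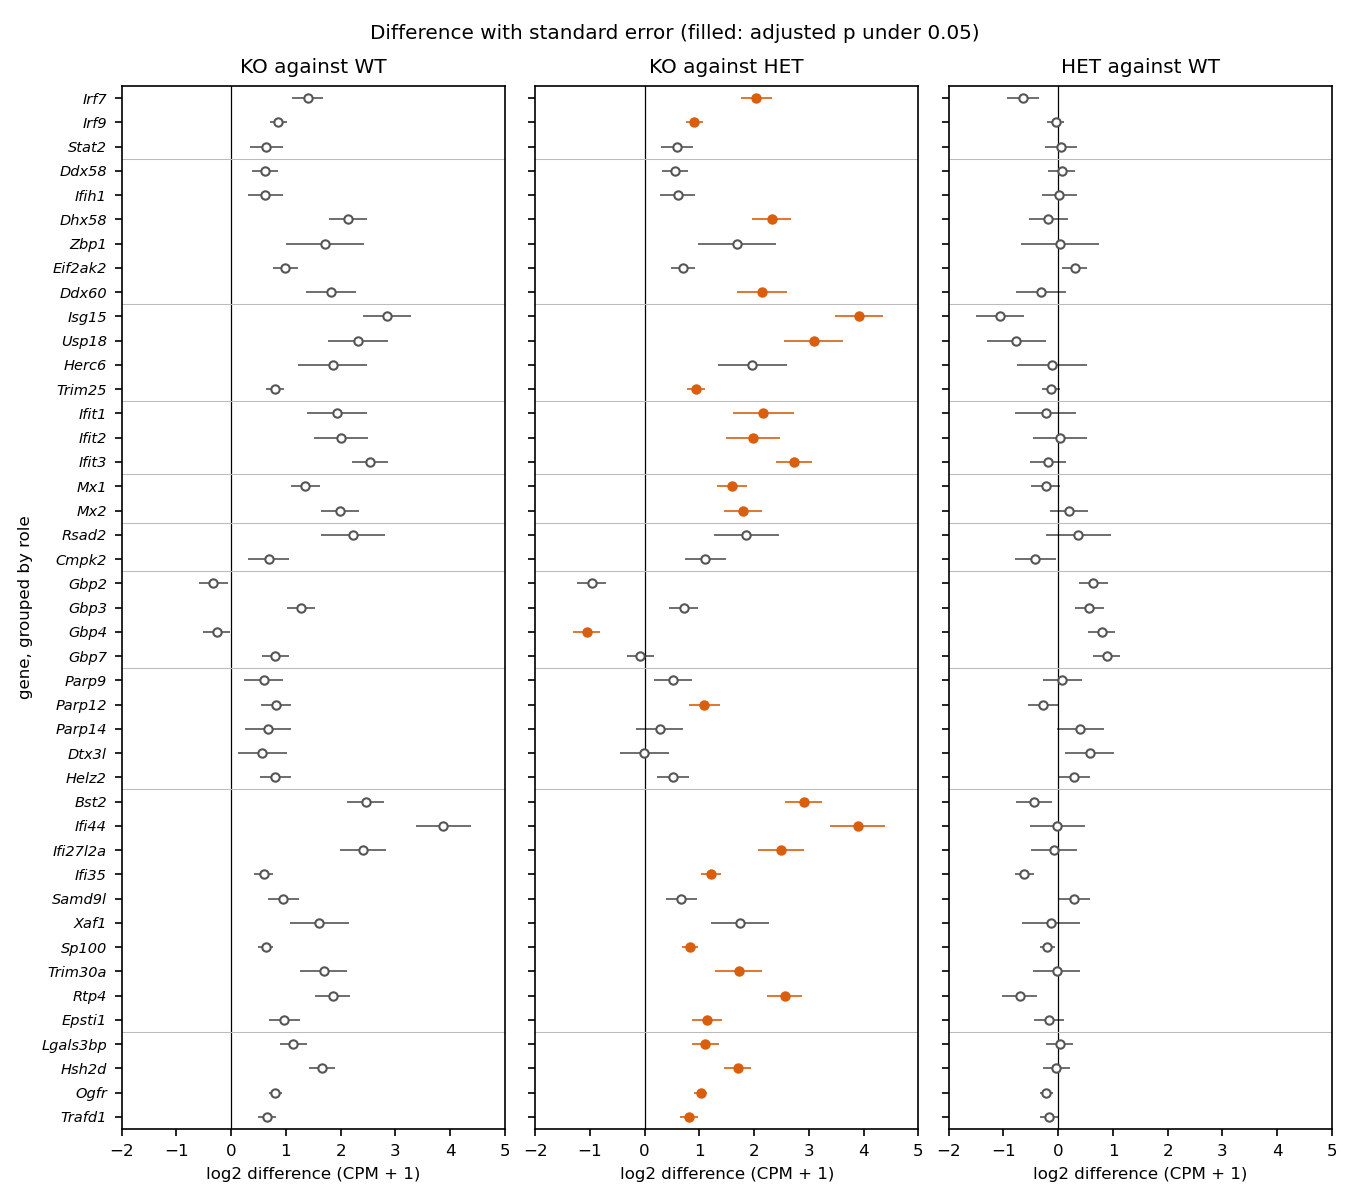
Log2 difference with its standard error (bars) for each of the 43 genes, grouped by role as in the heatmap, in KO against WT, KO against HET and HET against WT; filled points have an adjusted p under 0.05. In both KO panels nearly all points lie right of 0, filled points occur in KO against HET alone, and Gbp2 and Gbp4 lie left of 0 in both.

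In HET against WT none of the 43 passed by limma, and none of all 14001 genes tested did (0%). Of the 43, 6 had an unadjusted p under 0.05, which 15.3% of all genes had. The median log2 difference was −0.04, beside 0.08 over all genes, and 18 of the 43 lay above 0. The smallest p-values belonged to Gbp7 (0.89 (SE 0.25, adjusted p = 0.207)), Ifi35 (−0.62 (SE 0.18, adjusted p = 0.208)), Gbp4 (0.79 (SE 0.25, adjusted p = 0.223)) and Isg15 (−1.06 (SE 0.44, adjusted p = 0.294)). All HET libraries lay above all WT libraries for Gbp4 and Gbp7, 4.65% of the 43, beside 5.84% of all genes, and for none did they lie below, beside 3.81%. Isg15 had 6.14 to 14.6 CPM in HET and 9.23 to 28.03 in WT, ranges that overlapped (exact two-sided permutation p = 0.0571). Age and complex were crossed within HET, and the younger mouse had the higher value for 35 of the 43 with the amino complex and for 29 with the hydroxy complex. No share over all genes was taken beside these counts. Smooth muscle markers summed to 6064 and 5332 CPM in the older HET mice (amino, then hydroxy) and to 1136 and 984 CPM in the younger. Paneth cell markers summed to 738 and 3223 CPM in the older and to 5262 and 4590 CPM in the younger. Age and tissue make-up therefore cannot be told apart in these counts.

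The hydroxy complex was compared with the amino complex over all genotypes and within each, and none of the 43 passed in any of these comparisons by limma, nor did any of all genes (0%). Over all genotypes the median log2 difference, hydroxy minus amino, was 0.18, beside 0.07 for all genes, and 6 of the 43 had an unadjusted p under 0.05 (8.96% of all genes). Within KO the median was 0.57, beside 0.07, with 36 of the 43 above 0 and 10 at an unadjusted p under 0.05 (13.7% of all genes). The smallest p-values in KO belonged to Bst2 (2.24 (SE 0.47, adjusted p = 0.3)), Hsh2d (1.45 (SE 0.35, adjusted p = 0.3)), Ifi27l2a (2.36 (SE 0.60, adjusted p = 0.3)) and Ogfr (0.62 (SE 0.17, adjusted p = 0.3)). Both KO hydroxy libraries lay above both KO amino libraries for 16 of the 43 (37.2%), beside 28.8% of all genes, and below for 2 (4.65%), beside 16.8%. The KO median moved to 0.13 without KO hydroxy 1, to 0.15 without KO amino 2 and to 1.02 without KO hydroxy 2.

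Within WT the median difference between complexes was 0.17, beside 0.10, and 1 of the 43, Ifi27l2a, had an unadjusted p under 0.05 (1.03% of all genes). Its WT values, given above, were 1.26 and 1.54 CPM with the amino complex and 6.56 and 7.64 with the hydroxy complex (log2 difference 1.75, SE 0.60, adjusted p = 1 by limma). Ifit3, Rsad2 and Rtp4 came next in WT, at 0.81, 1.04 and 0.70 with the same adjusted p. Within HET the median was −0.18, beside 0.01, with none of the 43 at an unadjusted p under 0.05 (2.68% of all genes), and the smallest p-values there were those of Ogfr (0.35), Ifi35 (0.39), Gbp4 (−0.52) and Gbp2 (−0.54). The difference between complexes was itself compared between genotypes. In KO minus WT its median over the 43 was 0.42, beside −0.04, and 3 of the 43 had an unadjusted p under 0.05 (3.79% of all genes). Bst2 (1.81), Mx1 (1.40), Hsh2d (1.26) and Gbp4 (−0.97) had the smallest p-values, each with an adjusted p of 0.992. In HET minus WT the median was −0.27, beside −0.09, with 0 of the 43 at an unadjusted p under 0.05 (1.59% of all genes), led by Ifi27l2a (−1.89), Ifit3 (−1.17), Gbp4 (−0.87) and Gbp7 (−0.71).

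Replicates of a group differed in a way that ran through most of the 43. KO hydroxy 1 exceeded KO hydroxy 2 for 40 of the 43, and KO amino 1 exceeded KO amino 2 for 42. WT amino 2 exceeded WT amino 1 for 40, and WT hydroxy 1 exceeded WT hydroxy 2 for 38. The same counts were not made over all genes tested, so whether these shifts are particular to the 43 cannot be told. Sums of T cell and goblet cell markers had the order of the 43 in each of these groups. In replicate order Paneth cell markers summed to 1025 and 4240 CPM in WT amino and 4734 and 1643 in WT hydroxy. In KO amino they summed to 3212 and 1278 CPM, also the order of the 43, but in KO hydroxy to 1957 and 2374. Smooth muscle markers had the opposite order in each group. The part of tissue make-up in these shifts was not tested. The pooled SD between the libraries of a group, for the median centred log2 level of the 43, was 0.394, against the median KO differences of 1.14.

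Other genes of the interferon pathway were taken from a list of 109, of which 99 were in the table and 94 were tested. In KO against HET 12 of the 94 passed by limma (12.8%, beside 6.84% of all genes), 10 higher and 2 lower. In KO against WT 0 passed, and 33 had an unadjusted p under 0.05 (35.1%, beside 9.79% of all genes). In HET against WT 0 passed, and 19 had an unadjusted p under 0.05 (20.2%, beside 15.3% of all genes). Of the listed ligands the table held Ifng, which did not pass the filter, at 0.644 CPM in HET amino 2 and at 0 to 0.175 CPM in the other libraries; the others were not analysed here. The receptors gave 0 calls of 6. Ifnar1, a chain of the type I receptor, had 37.9 to 56.7 CPM over the 12 libraries and a log2 difference of −0.17 in KO against HET, and Ifnar2, the other chain, had 14.1 to 32.3 CPM and 0.12. Ifnlr1 and Il10rb, the chains of the type III receptor, had differences of 0.10 and 0.18. Ifngr1 and Ifngr2, the chains of the receptor for interferon gamma, had 0.37 and 0.29.

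Further down the pathway the kinases and Stat factors gave 0 calls of 5, the other Irf factors with the Irf2-binding protein Irf2bp1 0 of 6 and the sensing genes 0 of 15 in KO against HET. Of the 9 brakes on the response Samhd1, a nucleotide hydrolase, rose (0.69 (SE 0.12, adjusted p = 0.022) by limma), with 148 to 184 CPM in KO above 93.9 to 107 CPM in HET. Of 53 other induced genes 11 passed (20.8%). Over all genes tested the share that passed in KO against HET was 6.84%. The 9 that rose were Apol9a (2.10), Phf11d (2.05), Apol9b (1.80), the membrane antiviral protein Ifitm3 (1.74), Ifit3b (1.69), Slfn2 (1.58), the Isg15-conjugating enzyme Ube2l6 (1.31), Ly6e (1.07) and Shisa5 (0.96). The 2 that fell, Gbp9 (−1.16) and Gbp8 (−0.97), belong to the same family as Gbp4. Gbp8 had 5.26, 5.397, 4.19 and 3.27 CPM in HET, 2.25, 2.51, 2.08 and 1.84 CPM in WT and 2.51, 1.704, 1.41 and 1.65 CPM in KO, so HET stood above both other genotypes. In HET against WT the smallest p-values of the list were those of Gbp8 (0.79), Tlr7 (0.88), a sensor of RNA in endosomes, and Apol9a (−1.19), each with an adjusted p of 0.207 by limma.

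**Figure D4:**
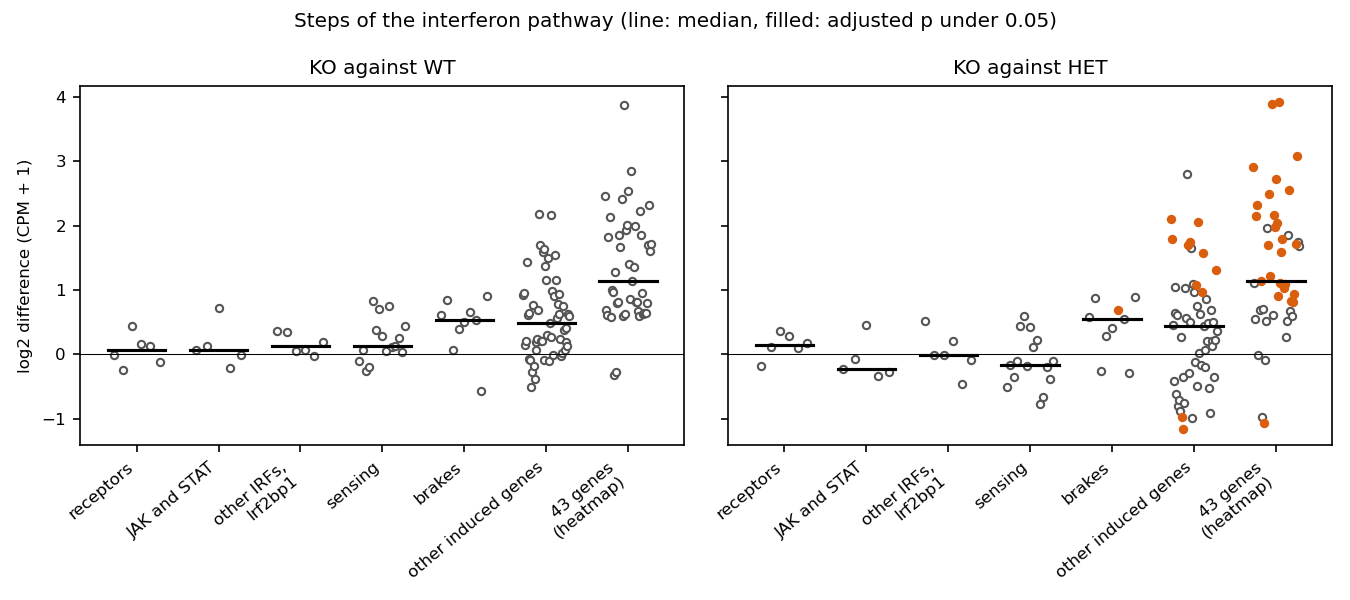
Log2 difference of each tested gene by step of the interferon pathway, with the 43 genes in the last column, in KO against WT and KO against HET; lines mark medians and filled points an adjusted p under 0.05. Receptors, kinases with Stat factors, other Irf factors with Irf2bp1, and sensing genes lie around 0, and the 43 genes have the highest median, 1.14 in each panel.

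Cell type markers were read beside these results, since in bulk tissue fewer cells of a type and less RNA per cell cannot be told apart. Counts of markers called in KO against HET stand beside 3.4% of all genes tested called lower there and 3.44% called higher. Plasmacytoid dendritic cells are known as strong interferon producers. Their 7 markers outside the 43 summed to 94.7 to 148 CPM in WT, 129 to 212 in HET and 101 to 149.6 in KO, with 2 of 6 tested lower in KO against HET, and Siglech stood at 0.330 to 1.47 CPM throughout. Bst2 is also a marker of these cells and was left out of that sum. Irf8, at 56.3 to 159 CPM, held most of the sum in every library, and Tcf4 had 13.6 to 56.9 CPM. The sum therefore follows mainly these genes, and Irf8 is also on the list of other pathway genes. The 12 macrophage and dendritic cell markers summed to 179 to 261 CPM in WT, 273 to 410.0 in HET and 132 to 220.1 in KO, with 4 lower in KO against HET. Endothelial markers summed to 199 to 258 CPM in WT, 175 to 499 in HET and 124 to 229.7 in KO, with 1 of 6 lower. T cell markers summed to 34.6 to 106 CPM in WT, 41.5 to 110.4 in HET and 47.2 to 107 in KO, with 1 of 10 lower. Smooth muscle markers summed to 2052 to 5743 CPM in WT, 984 to 6064 in HET and 865 to 2924 in KO, with the older HET mice at 6064 and 5332. KO hydroxy 1, where 34 of the 43 were highest, held the lowest sums of macrophage, endothelial and smooth muscle markers of all 12 libraries. Proliferation markers summed to 139.5 to 233 CPM in WT, 221 to 366 in HET and 164 to 491 in KO, with 1 of 6 higher in KO against HET. Of the tested B cell (10), enterocyte (10), Paneth cell (6) and goblet cell (6) markers 0 passed in any comparison of genotypes. Between complexes within KO the B cell markers were not even, although 0 passed there. All 10 lay above 0 in hydroxy against amino, with a median log2 difference of 1.54, the highest among the marker lists. Their sums, mostly from the gene Jchain, differed less, at 560 and 581 CPM in KO amino and 688 and 646.5 CPM in KO hydroxy. The part of these cell types in the levels of the 43 was not tested.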

How the data were processed

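Values of CPM, reads scaled to library size, for 17112 genes in 12 libraries were deposited by the authors, with 0.0001 added to each value. Per the submitters' processing notes, Partek and TopHat2 were used with the build mm10; roles and versions are not stated. The sources used here do not name the counting tool, the annotation or the use of strand. Libraries were grouped by the sample labels. Steps between low values gave the depth, but 92.95% to 94.39% of a library's low nonzero values lay within 0.05 of a whole read, too few for a count model.

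The 14001 genes that reached 1 CPM in 2 or more libraries were transformed to log2(CPM + 1), on which scale every log2 difference stands and changes of low genes are understated. CPM is not divided by gene length, so levels were compared between libraries and not between genes. The model had 6 group means and 6 residual degrees of freedom and used limma 3.58.1 under R 4.3.3 (eBayes with trend, two-sided tests); genotypes were compared as means over both complexes. Each of 9 comparisons had its own Benjamini-Hochberg adjustment over all tested genes, at a threshold of 0.05. All adjusted p-values are limma's. The steps were tested on simulated data. Intervals of depth cover counting error only. Genes named with values by library were the members past the threshold in any comparison, the 4 with the smallest p in each, and Isg15, Irf7 and Ifit1; of other pathway genes, those past the threshold, the 3 with the smallest p per genotype comparison, and receptors and ligands; Dtx3l, drawn by library as a gene whose genotypes overlap, and the sex, segment and marker genes stand outside this rule. The members and lists were chosen with earlier results of these data known. Coordinates are those of the deposited table (mm10), 1-based. RefSeq matched all 43 symbols. Alternatives changed the pseudocount, the filter, the normalization, the model terms and the libraries used.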

Additional observations from a re-analysis of the deposited data

Results flagged for a closer look

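Among the 29 genes that the rule for named members selects, each of the 3 genotypes was looked at for 1 library far from the other 3, which made 87 combinations. In 2 of them the gap of the extreme library to its nearest neighbour, as a share of the range of the 4, exceeded Dixon's critical value for 4 samples. Chance gives such a gap in about 1 of 20 groups. Irf9 stood at 18.8 CPM in HET hydroxy 1, the 338-day-old mouse, against 26.6 to 27.6 CPM in the other HET libraries (gap share 0.899). Lgals3bp stood at 223 CPM in HET amino 2, the 141-day-old mouse, against 163 to 167 CPM in the other HET libraries (gap share 0.932).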

How the results depend on the processing

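The number of the 43 genes called in KO against WT was 0; it was 3 with a pseudocount of 5, 4 after quantile normalization, 2 after rescaling to the listed genes, 6 with age as a covariate, 1 with genotype alone, 3 with additive genotype and complex, 1 without the older HET mice, 7 without both KO amino libraries (additive) and 0 to 3 with 1 library left out. In KO against HET it was 26; it was 20 to 27 under the other planned settings on the values or the model, 11 without the older HET mice, 0 without both KO hydroxy libraries (additive) and 0 to 22 with 1 library left out. Members whose HET and WT libraries did not overlap numbered 2, against 1 after quantile normalization, 7 without the older HET mice and 2 to 7 with 1 library left out. With 1 library left out the median difference between complexes ran from 0.13 to 1.02 in KO, and that of KO minus WT from −0.0658 to 0.81. Gbp7 in KO against HET ran from −0.23 to 0.0692 over those fits, and Gbp4 in KO against WT was 0.0031 without both KO hydroxy libraries. The cause of these shifts was not tested. Leaving out a library leaves its group with 1, which is assumed to vary like the others. No paired analysis was possible because the labels name no litter, cage or batch by which mice could be paired. Groups of 2 libraries limit every test, and depth limits levels near the 0.0773 to 0.115 CPM of 3 reads, below every value of the 43.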
